A study of Schmidtea mediterranea with 58 samples.

Results

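The regions described here are stem-cell-biased H3K4me3 loci of the planarian *Schmidtea mediterranea*, sites at which the mark was higher in X1 cells than in Xins cells of untreated worms. They were chosen by the measured values of that comparison. A region counted as a member where its mean normalized read count in X1 was at least 2 times the mean in Xins, where the X1 mean was at least 20, and where both X1 libraries lay above both Xins libraries. The rule took 600 of the 1378 regions listed for untreated X1 against Xins cells. Of the remaining regions, 262 were also higher in X1 but missed the rule (209 through the ratio and 53 through the X1 mean), and 516 were higher in Xins. The members were then followed, by an overlap of at least 1 base, through the 6 tables of regions listed after RNAi of *set1* or *mll*.

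H3K4me3 was measured by chromatin immunoprecipitation and sequencing (ChIP-seq) in untreated X1 and Xins cells, and in X1 cells, Xins cells and whole worms after worms had been fed double-stranded RNA targeting *set1* (6 days) or *mll* (9 days). Every knockdown was set against *unc* RNAi libraries of its own from the same material, and how long those controls were fed is not stated in the labels. Each group compared here held 2 H3K4me3 libraries, with input libraries beside them, and nothing in the labels says whether the 2 came from separate cultures of worms, so p-values measure only the spread between libraries, which may be technical. Each comparison was therefore 2 libraries against 2, where an exact permutation test cannot give a p below 0.333, and p-values come from a limma model fitted over all listed regions of a table.

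X1 is the usual name of a planarian cell fraction with replicated DNA that is isolated by flow cytometry and is lost after irradiation. It is rich in neoblasts, the stem cells that renew all tissues of the animal. Xins is the fraction that survives irradiation and holds mainly differentiated cells. H3K4me3, histone H3 trimethylated at lysine 4, marks the starts of active genes, and broad domains of it often lie on genes that are characteristic of a cell type. SET1 and MLL proteins are the catalytic subunits of separate COMPASS complexes, which write this mark in animals. Gene identifiers are given as deposited, because they were paired with no gene names or functions, so neither the stem cell label nor the knockdown of *set1* or *mll* could be checked against marker genes.

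In untreated cells the members had a median mean count of 52.2 in X1 (quartiles 35.3 and 76.9) and of 15.6 in Xins (quartiles 8.57 and 25.5). Enrichment over input had a median of 14.6 in X1 and 4.26 in Xins, and the lower quartile in Xins was 2.31, so that most members carried less of the mark in Xins rather than none. The ratio of the means had a median of 2.93, and its upper quartile was 4.72. These values chose the members and are given as a description, with no test. The table of untreated cells broke off in mid-row (scaffold number 1565), and the members therefore stand only for the scaffolds it covered.

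**Figure D1:**
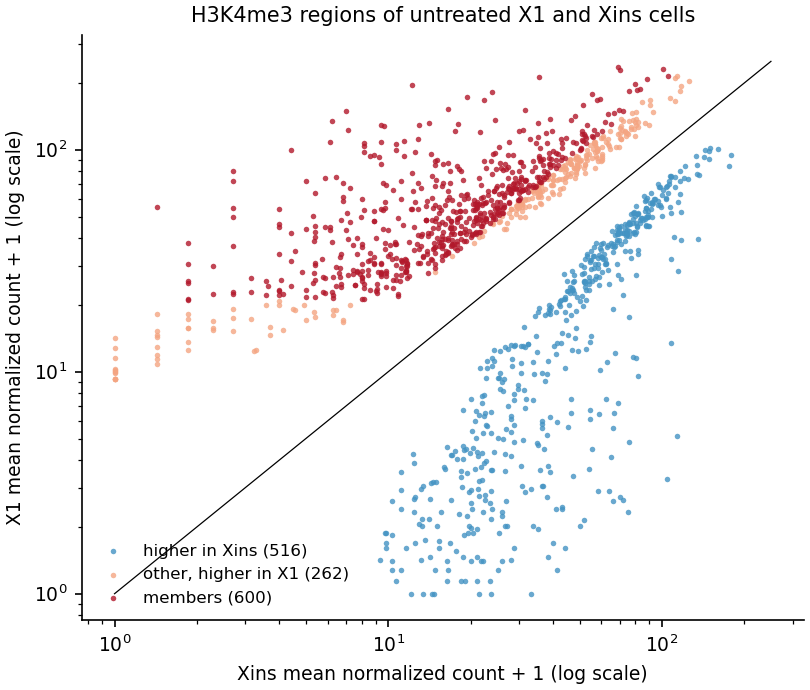
Mean normalized read count plus 1 in untreated X1 cells (vertical, log scale) against untreated Xins cells (horizontal, log scale) for each of the 1378 listed regions; the line marks equal values. The 600 members lie above the line by the rule that chose them, the 262 other regions higher in X1 lie between them and the line or at low X1 means, and the 516 regions higher in Xins lie below it.

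The depth of the 4 untreated libraries differed. A member held a median of 56 and 187 reads in the X1 libraries but of 4 and 18 reads in the Xins libraries, and 1 read in the first-listed Xins library was worth 4.43 to 4.56 normalized units. That library was at 0 in 50 members, and the second-listed one in none. When the rule was applied without the first-listed Xins library it took 617 regions, of which 536 were among the 600 members. Just inside the ratio limit lay the region at SMED30011869 (scaffold v31.000232, 148601 to 150100), with 55.1 and 61.1 in X1 and 36.5 and 21.4 in Xins, a ratio of 2.01. Just outside it lay the region at SMED30015541 (v31.000035, 36201 to 37900), with 94.5 and 85.4 in X1 and 50.2 and 40.3 in Xins, a ratio of 1.99. At the X1 limit, the member at SMED30030459 (v31.000061, 122301 to 123400) had 18.4 and 22.0 in X1, and the region at SMED30016858 (v31.000044, 296201 to 297200), which missed it, had 21.1 and 18.7.

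The members with the highest X1 means were broad regions next to gene starts. The highest lay 538 bases from the start of SMED30031463 (v31.000124, 202501 to 205700), with 234.0 and 235.1 in X1 and 72.9 and 63.5 in Xins. The next lay 303 bases from the start of SMED30013909 (v31.000399, 150101 to 153100), with 234.9 and 224.1 in X1 and 95.7 and 104.7 in Xins. At both of these loci the Xins libraries still held a clear mark, at an enrichment over input of 5.28 and 11.95.

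The members with the largest ratios, among those with reads in both Xins libraries, spanned a gene start. The region at SMED30030295 (v31.000973, 65301 to 68200) had X1 counts of 139.3 and 127.3 and Xins counts of 4.43 and 6.01, a ratio of 25.5. The region at SMED30024908 (v31.000053, 217401 to 220400) had X1 counts of 124.8 and 119.5 and Xins counts of 4.56 and 7.72, a ratio of 19.9. Both had an Xins enrichment at or under the level of the input, 0.96 and 0.88, against 18.4 and 22.9 in X1. In the first-listed Xins library each of these values stood for 1 read.

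Members fell into 2 positional kinds. Of the 600, 304 (50.7%) lay within 200 bases of an annotated gene start, 251 (41.8%) lay 201 to 1000 bases away and 45 (7.50%) lay farther. Among the regions higher in Xins the same shares were 82.0%, 8.14% and 9.88%. Among the other regions higher in X1 they were 32.4%, 58.8% and 8.78%, so a place 201 to 1000 bases from a start is not particular to members. Members at a start were longer (median 2000 bases against 1300) and more biased to X1 (median ratio 3.96 against 2.54) than those 201 to 1000 bases away, and their Xins mean was lower (13.5 against 20.02) at a similar X1 mean (57.1 against 49.6). The rule did not name length or position, but length is not independent of the X1 mean that it used. In 4 groups of 150 members from the shortest to the longest, the median X1 mean was 31.1, 46.8, 63.0 and 92.3. Members of at least 2000 bases numbered 201 (33.5%), compared with 6.11% of the other regions higher in X1 and 24.4% of the regions higher in Xins.

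Members were spread over 480 scaffolds, 387 of which held a single one. The most on any scaffold was 5, on v31.000078, where the region at SMED30011838 (262401 to 265000) had X1 counts of 101.0 and 97.2 and Xins counts of 9.12 and 10.3, and the other members had ratios between 2.04 and 2.79. Of the 120 pairs of neighbouring members on a scaffold, 3 lay within 1000 bases of each other, and the median gap was 46500 bases. A region higher in Xins lay within 1000 bases of 19 members, 13 of which were 201 to 1000 bases from a start.

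After *set1*(RNAi) in X1 cells, H3K4me3 fell at 78 members and rose at none. These 78 were all the members listed in this comparison, and 553 of its 554 regions were called lower, so the direction was that of the list. A member was called lower where a listed region that overlapped it passed limma's adjusted p of 0.05, and the regions had been listed by the authors for a difference between these same libraries, so a call says only that the difference exceeded the spread between libraries. The 78 were 13.0% of the members, beside a background of 10.4% of all 1378 regions, 22.5% of the 262 other X1-biased regions and 1.36% of the 516 Xins-biased ones. The median change was -0.86 on the log2 scale, a 1.81-fold fall, and -0.89 over the lowered regions of the whole table. Median enrichment over input was 9.21 in the control and 4.71 after RNAi, so the mark was typically reduced and not lost. The fall reached 1 on the log2 scale in 13 of the 78 regions that overlapped a member (16.7%), beside 22.4% of the lowered regions of the table.

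The largest fall lay inside the member that spanned the start of SMED30017448 (v31.000470, 83901 to 85400 of a member of 83101 to 86200). Its normalized counts were 130.2 and 163.8 in the *unc* libraries and 48.0 and 63.9 after *set1*(RNAi), and it was a strongly biased locus, with 95.5 and 97.2 in untreated X1 and 13.7 and 9.44 in untreated Xins. The change was -1.38 (SE 0.14, limma adjusted p = 1.31e-19). The libraries of the groups did not overlap, which was a condition for naming a locus.

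At SMED30016975 (v31.000031, 295301 to 297100) counts were 165.2 and 178.5 in the control and 67.1 and 81.2 after RNAi, a change of -1.21 (SE 0.12, limma adjusted p = 4.72e-20). At SMED30010457 (v31.000011, 398801 to 400500) they were 192.2 and 174.2 in the control and 87.5 and 72.5 after RNAi, a change of -1.19 (SE 0.12, limma adjusted p = 4.54e-21). Both lay inside members that spanned a gene start. The second-largest fall (v31.000031, 67201 to 68200) was instead in a member far from any annotated start. The deposited distance of that member was 230605 bases, to SMED30027563. The start of SMED30016975 on the same scaffold lies somewhat closer, so the gene listed is not the nearest. The region from 67201 to 68200 had 90.7 and 95.7 in the control and 30.0 and 47.6 after RNAi, a change of -1.28 (SE 0.19).

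The members lowered by *set1*(RNAi) in X1 were mostly those with high H3K4me3 in untreated X1. Ordered by untreated X1 mean in 4 groups of 150, they numbered 5, 8, 15 and 50 from the lowest to the highest. Ordered by the ratio of X1 to Xins they numbered 30, 19, 16 and 13 from the least to the most biased. Regions listed in this table had a control mean of at least 44.2, and the reads behind them had medians of 137 and 148.5 per control library and of 56.5 and 60.5 per RNAi library at the members. A member with few reads had less chance of being listed, and the part of depth in this order was not tested.

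After *mll*(RNAi) in X1 cells, 26 members fell and 6 rose. Together they were all 32 members listed in this comparison, in which 282 of 306 regions were called lower and 20 higher. The 26 were 4.33% of the members, beside 3.05% of all 1378 regions, 1.15% of the other X1-biased regions and 2.52% of the Xins-biased ones, and the 6 were 1.00%, beside 0.508% of all regions. The median fall was -1.24 on the log2 scale, or 2.36-fold, and -1.13 over the lowered regions of the whole table. It reached 1 in 14 of 26 regions (53.8%), beside 62.4% in the table. Median enrichment over input went from 7.53 in the control to 2.82 after RNAi. The median reads at members were 171 and 121.5 in the control and 50.5 and 35.5 after RNAi.

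The deepest loss was at SMED30009782 (v31.000612, 23001 to 24000), inside a member that spanned the gene start. Counts were 93.4 and 74.3 in the *unc* libraries and 19.3 and 7.76 after *mll*(RNAi), a change of -2.66 (SE 0.35, limma adjusted p = 3.48e-05). Enrichment over input there was 9.77 in the control and 0.93 after RNAi, the level of the input. The RNAi values stood for 19 and 5 reads, against 136 and 81 in the control, so the size of this loss is imprecise.

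At SMED30009983 (v31.000039, 144701 to 146500) counts were 149.8 and 137.6 in the control and 18.3 and 43.5 after RNAi, a change of -2.30 (SE 0.30, limma adjusted p = 3.14e-05). At SMED30024332 (v31.000668, 58901 to 61500) they were 222.6 and 192.6 in the control and 52.8 and 54.3 after RNAi, a change of -1.93 (SE 0.11, limma adjusted p = 1.38e-06). Control and RNAi libraries were far apart at each of these loci, which were picked for the largest falls. The largest rise was smaller. It lay at 45801 to 46800 of v31.000959, inside a member whose distance from the start of SMED30028902 was 275 bases. Counts were 124.6 and 112.0 in the control and 164.9 and 159.3 after RNAi, a change of 0.45 (SE 0.09, limma adjusted p = 0.000477).

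**Figure D2:**
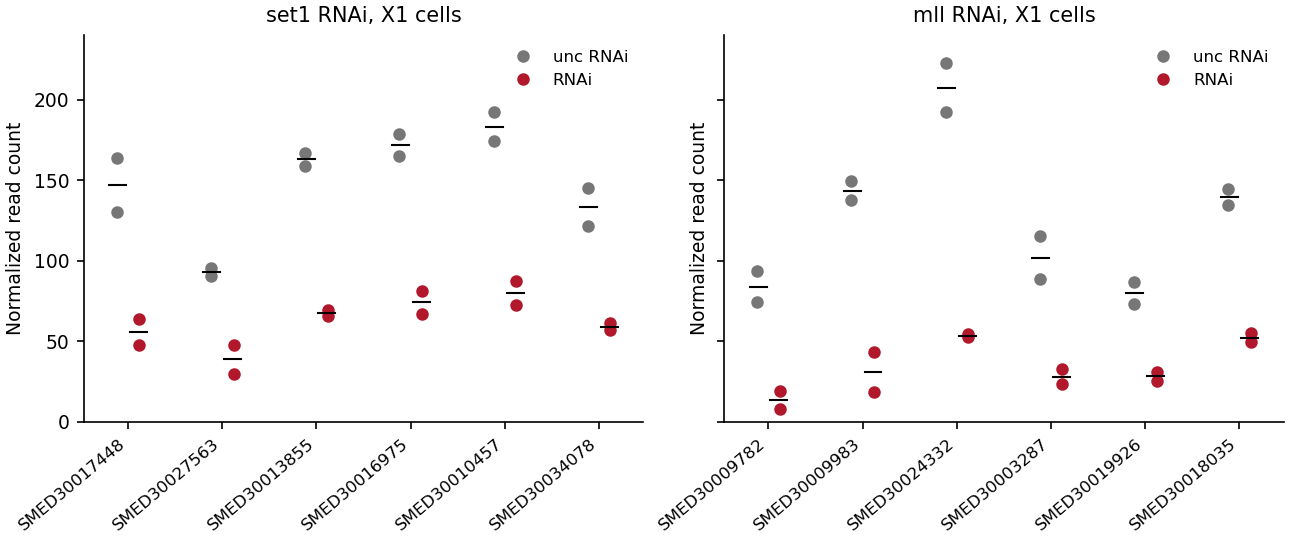
Normalized read counts of each H3K4me3 library (points; bars are means of 2) at the 6 members with the largest called falls after *set1*(RNAi) and after *mll*(RNAi) in X1 cells, named by the nearest gene. At each of the 12 the 2 RNAi libraries lie below both *unc* RNAi libraries, which was a condition for choosing these loci. The lowest value is 7.76, at SMED30009782 after *mll*(RNAi).

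The members lowered in X1 by the 2 knockdowns did not overlap, since none of the 78 was among the 26. Over all 1378 regions 1 was lowered by both, of 144 and 42, so a near absence of overlap is not particular to members. The same was found at a member ratio of 3, at an X1 mean of 10 or of 40 and without the first-listed Xins library, and 1 region was shared at a ratio of 1.5. The lists also differed in position. Of the *mll* members, 23 of 26 (88.5%) lay within 200 bases of a gene start and 1 lay 201 to 1000 bases away, whereas of the *set1* members 27 of 78 (34.6%) lay within 200 bases and 44 (56.4%) at 201 to 1000. In other terms, *set1*(RNAi) lowered 8.88% of the members at a start and 17.5% of those 201 to 1000 bases away, and *mll*(RNAi) lowered 7.57% and 0.398%. The same shares over all 1378 regions were 6.03% and 18.6% for *set1* and 4.68% and 0.447% for *mll*, so the pattern is not particular to members. The called regions were placed much like the members, with 24 of 26 within 200 bases after *mll*(RNAi), and 24 of 78 within 200 and 46 at 201 to 1000 after *set1*(RNAi). Of the 6 members that rose after *mll*(RNAi), all lay 201 to 1000 bases from a start, but 4 of the 6 regions that rose lay within 200 bases of one. The knockdowns also differed in days of feeding and in libraries, which cannot be told apart from the gene targeted.

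In Xins cells, all 106 regions listed after *set1*(RNAi) were called lower. Only 5 members were listed, and so 5 fell, which is 0.833% of members beside 1.16% of all regions. The deepest was at SMED30010845 (v31.001482, 44601 to 45700), with 60.9 and 80.3 in the control and 32.4 and 22.0 after RNAi, a change of -1.36 (SE 0.26, limma adjusted p = 1.80e-05). Without the first-listed control library 1 member was called and without the second-listed one 0, so these 5 calls rested on both. After *mll*(RNAi) in Xins the table listed 12 regions, none of which overlapped a member, beside 0.145% of all regions, so no member was tested there.

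**Figure D3:**
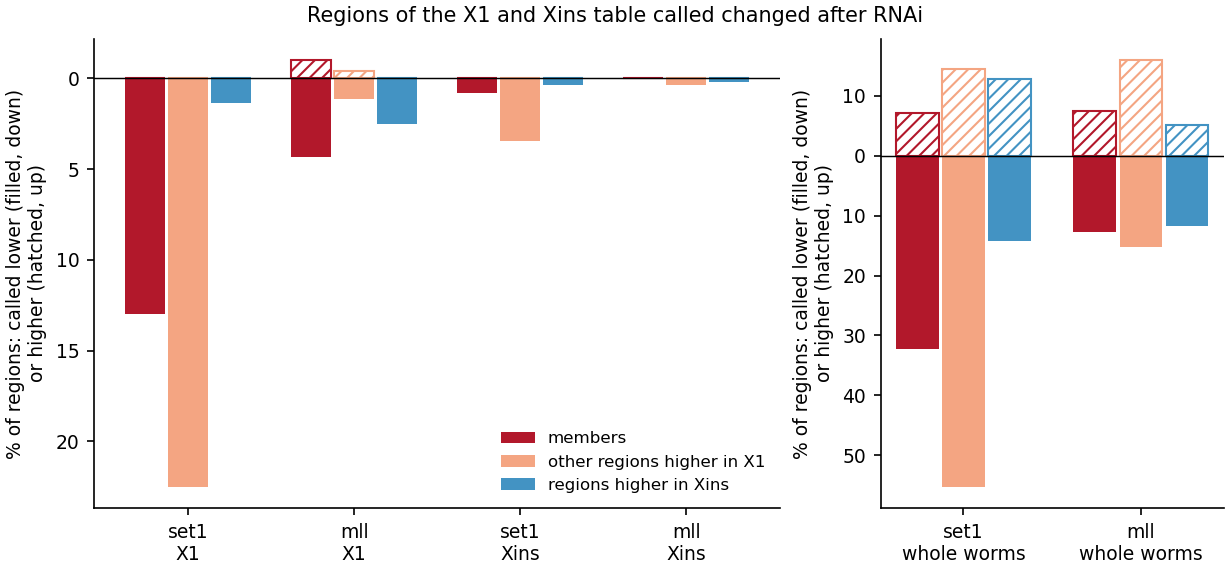
Percentage of the members, of the other regions higher in X1 and of the regions higher in Xins that overlapped a region called lower (filled bars, downwards) or higher (hatched bars, upwards) after RNAi, in sorted cells (left) and whole worms (right; the scales differ). Members were lowered by *set1*(RNAi) in X1 at 13.0% and in whole worms at 32.3%, in both cases between the regions higher in Xins and the other regions higher in X1.

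In whole worms *set1*(RNAi) lowered 194 members and raised 43. Of these, 16 were counted in both directions through different listed regions, which often shared bases with each other. Leaving out a library gave 125 to 157 lower and 16 to 28 higher, the fewest of both without the second-listed control. The 194 were 32.3% of the members beside 30.0% of all 1378 regions, and the 43 were 7.17% beside 10.7%, so the members as a whole stood near the background. The changes were small. The median of the lowered regions at members was -0.18, a 1.13-fold fall, and 3 of 194 fell by at least 0.5 on the log2 scale. Their median enrichment over input was 11.03 in the control and 10.9 after RNAi, so relative to input a fall was hardly seen. Over the lowered regions at all 1378 regions it was 11.25 and 11.41. The median reads per library at members were between 880 and 1576, against 56.5 to 148.5 in the X1 table, and smaller changes were called there. Whole worms hold X1 cells among all others, and fewer cells of a type and less of the mark per cell cannot be told apart in them.

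The largest of these falls was in the region from 8001 to 9500 of v31.000434. The member it overlapped (8801 to 10800) lay 704 bases from the start of SMED30009035, a distance that does not hold for the region itself. Counts were 1131 and 1073 in the control and 670.5 and 747.5 after RNAi, a change of -0.64 (SE 0.05, limma adjusted p = 3.92e-40). The largest rise was at SMED30009782, the locus that *mll*(RNAi) brought to the level of the input in X1. There whole worms had 410.5 and 453.3 in the control and 513.1 and 527.1 after *set1*(RNAi), a change of 0.27 (SE 0.06, limma adjusted p = 1.84e-05).

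The calls differed with the position of the member. *set1*(RNAi) lowered 135 of the 251 members at 201 to 1000 bases from a start (53.8%) and 46 of the 304 within 200 bases (15.1%). The shares over all 1378 regions were 53.5% and 17.5%. The lowered regions themselves reached closer to starts than the members they overlapped, since 122 of 194 (62.9%) lay within 200 bases of a start and 63 (32.5%) at 201 to 1000. Members 201 to 1000 bases away were also listed more often at all (90.0% against 28.0%), and a member that was not listed could not be called. The share lowered fell with the bias to X1, from 80 and 65 to 41 and 8 of 150 in the 4 groups ordered by ratio from least to most biased, and so did the number listed, from 122 and 114 to 79 and 22.

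**Figure D4:**
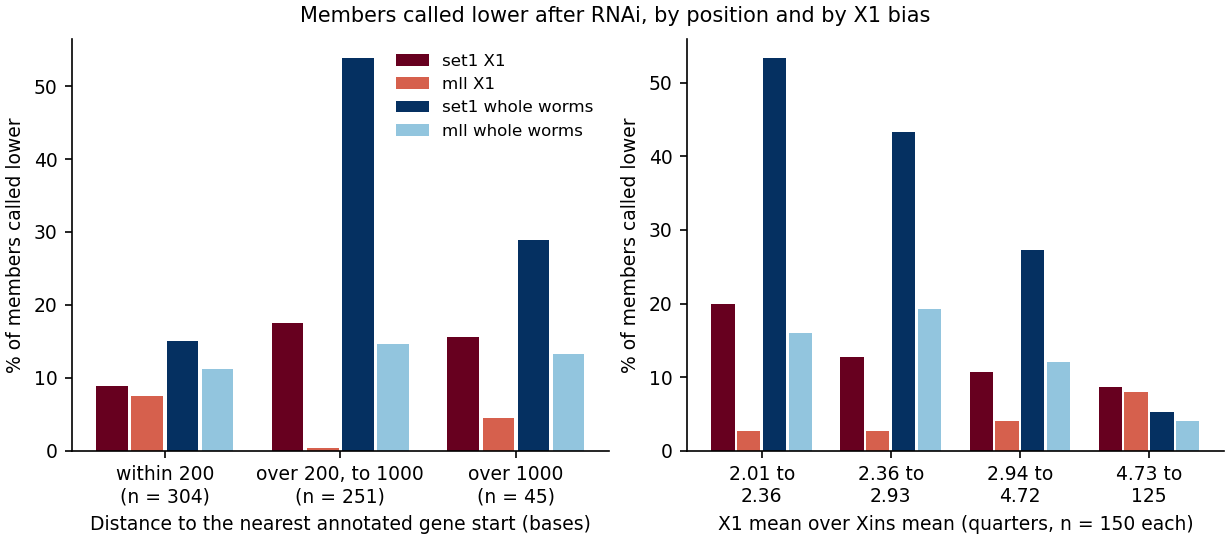
Percentage of members called lower after each knockdown in X1 cells and whole worms, by distance to the nearest annotated gene start (left) and by the ratio of X1 to Xins (right, 4 groups of 150 members). After *set1*(RNAi) in whole worms the share is 15.1% within 200 bases and 53.8% at 201 to 1000 bases, and after *mll*(RNAi) in X1 it is 7.57% and 0.398%.

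Of the 78 members lowered by *set1*(RNAi) in X1, 55 (70.5%) were also called lower in whole worms, which is 28.4% of the 194, and 6 were called higher there. Over all regions lowered in X1, 112 of 144 (77.8%) were also called lower and 18 (12.5%, against 7.69% of the 78 members) higher. Of the 78 members, 60 were listed in whole worms at all. The median change at the 55 was -0.84 in X1 and -0.20 in whole worms, on separately normalized tables, and these sizes cannot be compared because falls listed in X1 were large by selection. At 2 members a fall was called in X1, Xins and whole worms (0.333%, beside 0.581% of all regions). At SMED30019802 (v31.001196, 5901 to 6900) the change was -0.88 (SE 0.18) in X1, -0.76 (SE 0.20) in Xins and -0.50 (SE 0.05) in whole worms. In X1 its counts were 89.3 and 93.2 in the control and 51.9 and 46.8 after RNAi. At SMED30001362 (v31.000945, 72201 to 75200) the changes were -1.10 (SE 0.17), -0.74 (SE 0.19) and -0.34 (SE 0.05), in neighbouring parts of the member, and in X1 counts were 108.3 and 100.7 in the control and 35.0 and 65.8 after RNAi. In whole worms the region from 71001 to 72400 at this locus was called higher (0.15, SE 0.04), and it overlapped the region that fell in Xins (71601 to 73000). The Xins call at both loci was lost when either control library was left out.

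In 16 members the whole-worm response to *set1*(RNAi) was divided, with a lower and a higher region that both touched the member. They were 2.67% of the members, beside 3.56% of all 1378 regions and 8.02% of the other X1-biased ones. At SMED30028341 (v31.000204), the region from 68301 to 69300 had 757.4 and 773.5 in the control and 589.6 and 535.7 after RNAi, a change of -0.45 (SE 0.05). The adjoining region from 67101 to 68300 had 973.0 and 1019 in the control and 1179 and 1096 after RNAi, a change of 0.19 (SE 0.04). The mark thus fell inside the stem-cell-biased stretch and rose beside it, where the control counts were higher.

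The other divided members had a similar arrangement, but at most of them the lower and the higher region shared bases with each other. At SMED30012293 (v31.001387), for example, the higher region ran from 74001 to 75900 and the lower one from 75101 to 76200. Bases shared in this way were thus counted in both directions. In all 16 the lower region shared more bases with the member (median 1000 against 200). The higher region spanned an annotated gene start in 15 of 16 and the lower one in 4, and the higher region was the nearer to a start in 11, with 4 at equal distance and 1 (SMED30020163) the other way. Changes ran from -0.45 to -0.11 in the lower regions and from 0.10 to 0.19 in the higher ones. These calls were fragile, and with a library left out the divided members numbered between 3 (without the second-listed control) and 6. When at least 50% of the shorter region had to be shared, 178 members were called lower and 10 higher.

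**Figure D5:**
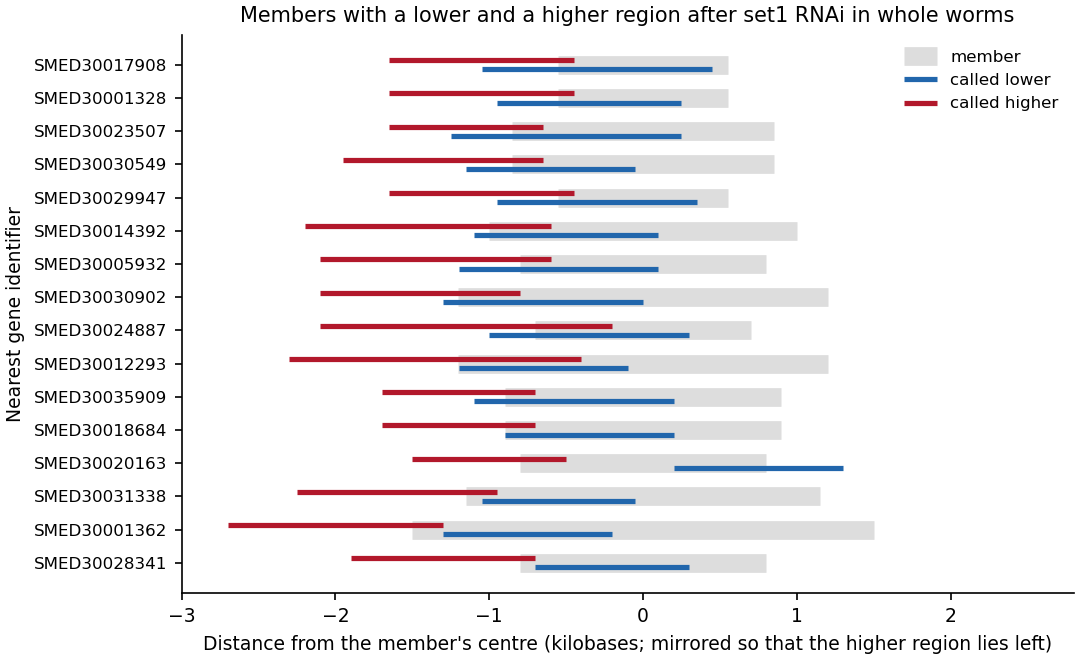
Positions of the region called lower and the region called higher after *set1*(RNAi) in whole worms at the 16 members with both, as distance in kilobases from the member's centre, mirrored where needed so that the higher region lies left. The lower region covers more of the member (grey) than the higher region does in all 16.

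In whole worms *mll*(RNAi) lowered 77 members and raised 45, with 1 in both. The 77 were 12.8% of the members beside 12.9% of all regions, and the 45 were 7.50% beside 8.27%, so again the members stood near the background. After centring on the median change of the table, 64 were lower and 90 higher, so that the balance of falls and rises turned with the scaling. Without the first-listed control 21 were higher and without the second-listed one 19. The median fall at members was -0.24 and 2 of 77 regions fell by at least 1 on the log2 scale. Median enrichment over input at the lowered regions was 8.52 in the control and 6.46 after RNAi.

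The deepest was at SMED30018035 (v31.001173), which was also among the 6 largest falls in X1. In whole worms (11301 to 12900) counts were 653.0 and 665.9 in the control and 200.4 and 238.0 after RNAi, a change of -1.59 (SE 0.07, limma adjusted p = 1.05e-116). In X1 (11301 to 13100) they were 144.5 and 134.9 in the control and 55.3 and 49.5 after RNAi, a change of -1.40 (SE 0.12). The member itself, 12301 to 13300, had a weak mark in untreated X1, with 27.9 and 23.3.

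Of the 26 members lowered by *mll*(RNAi) in X1, 5 (19.2%) were called lower in whole worms. Only these 5 were listed there, so the other 21 could not be called. Over all regions lowered in X1, 19 of 42 were listed and 17 were called lower. These 5 were 6.49% of the 77 lowered in whole worms. The changes at the 5 had medians of -1.24 in X1 and -0.88 in whole worms on separately normalized tables. Of the 26 members, 4 (15.4%) were called higher and 1 (3.85%) lower in whole worms after *set1*(RNAi). Over all 1378 regions these shares were 10.7% and 30.0%. Most of the 26 (23) lay within 200 bases of a start, and over all regions so placed the shares were 11.2% and 17.5%. Members not listed in that comparison could not be called, and these few calls were not tested.

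Between the knockdowns in whole worms, 25 members were lowered by both, 27 were lowered by *set1*(RNAi) and raised by *mll*(RNAi), 13 were raised by *set1*(RNAi) and lowered by *mll*(RNAi), and 2 were raised by both. These were 4.17%, 4.50%, 2.17% and 0.333% of the members, beside 4.21%, 5.01%, 2.83% and 0.943% of all 1378 regions. A member with calls in both directions could count in more than 1 of these groups. Both members raised by both knockdowns were also called lower after *set1*(RNAi), through another region, and so are among the 27 as well. Regions listed at a member after the 2 knockdowns could differ in bounds. Without a control library of *mll* the 27 became 11 or 10 and the 25 became 14 or 15, without the second-listed control of *set1* the 25 became 14, and without the second-listed RNAi library of *set1* the 13 became 5. The 27 were 60.0% of the 45 members that *mll*(RNAi) raised (60.5% over all regions) and 13.9% of the 194 that *set1*(RNAi) lowered. At SMED30018775 (v31.000919), lowered by both, counts were 1011 and 969.1 in the control and 813.1 and 812.6 after *set1*(RNAi), a change of -0.28 (SE 0.05). They were 987.8 and 944.0 in the other control and 793.4 and 799.5 after *mll*(RNAi), a change of -0.28 (SE 0.04). Enrichment over input there hardly moved with *set1*(RNAi), from 9.99 in the control to 9.90, and went from 10.04 to 7.48 with *mll*(RNAi). SMED30011104 (v31.000654) moved in opposite directions. Its counts were 958.3 and 1005 in the control and 1116 and 1139 after *set1*(RNAi). For *mll*(RNAi) they were 788.2 and 771.6 in the control and 436.9 and 425.9 after RNAi. These changes were 0.20 (SE 0.04) and -0.85 (SE 0.05), and the difference between them was not tested.

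A call in at least 1 of the 6 tables was found for 317 members (52.8%, beside 49.3% of all 1378 regions), and 207 (34.5%, beside 36.5%) overlapped no listed region in any. The 207 were strongly biased to X1, with a median ratio of 4.88 and a median enrichment over input of 12.3 in X1 and 2.48 in Xins. Most of them, 176 (85.0%), lay within 200 bases of a gene start, and their median length was 2000 bases. They made up 57.9% of all members at a start and 6.37% of those 201 to 1000 bases away, and over all 1378 regions the shares were 48.6% and 11.9%. Their level in the RNAi and control libraries was not analysed here, since the tables hold values of listed regions only, and an absent listing does not show that the mark was unaltered.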

How the data were processed

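The analysis started from 7 tables deposited by the authors, made with diffReps, which scans a genome in windows and compares libraries. Per the labels' processing notes, CASAVA 1.8.2, Bowtie and MACS2 were also used; aligner settings and genome build are not given in the sources used here. Positions are on scaffolds named v31. The authors deposited, for each listed region and library, a normalized read count, a group mean of that signal and its enrichment over input as a ratio. Columns with the authors' own comparisons (fold changes and p-values) were not used, and 0 value columns were left unmatched. Treatment was read as X1 from the name of the untreated table. *Drosophila* cells are mentioned in the protocol, and whether they scaled the libraries is not given, so a fall shared by all regions could go unseen.

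Each region was counted once. Values of log2(normalized count + 1) were fitted with limma 3.58.1 in R 4.3.3 per table, with empirical Bayes variances (trend on the mean where a table held at least 50 regions) and p-values adjusted by Benjamini-Hochberg over all regions of a table at 0.05. The fit was tested on simulated data. Fold changes are on the scale of log2(normalized count + 1). Within runs of scaffolds the values were whole multiples of 1 step (tolerance 0.0075), which gave reads per library; the *mll* Xins table gave none, so its depth is unknown. Tables were normalized separately. Summaries and figures were made in Python 3.11.15 with pandas 2.3.3 and matplotlib 3.10.9.

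The members, the positional classes and the rule for named loci (largest called change per table with non-overlapping libraries and a mean of at least 20, and the largest shared or opposite changes) were chosen with earlier results of these data known. Groups by level or ratio, divided members and unlisted members were described after their values were seen. Alternatives were another variance trend, centring, other member limits, a stricter overlap, direction alone, each library left out, 1 step per library and the rule without the first-listed Xins library, the last 2 added after seeing the data.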

Additional observations from a re-analysis of the deposited data

Results flagged for a closer look

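At 6 members, whole worms moved in opposite directions after the 2 knockdowns, with the RNAi libraries all below their control after 1 knockdown and all above it after the other. The difference between the knockdowns was not tested, and it is given as the *set1* change minus the *mll* change on the log2 scale. The 2 changes come from listed regions that both overlapped the member but differed in bounds. At v31.001196 they ran from 5701 to 6700 for *set1* and from 4601 to 6600 for *mll*. With *set1* lower and *mll* higher, it was -0.66 at v31.001196 (changes of -0.50 and 0.16), -0.38 at v31.001805 (-0.21 and 0.17) and -0.37 at v31.000452 (-0.17 and 0.20). With *set1* higher and *mll* lower, it was 1.05 at v31.000654 (0.20 and -0.85), 0.90 at v31.000668 (0.21 and -0.69) and 0.72 at v31.001119 (0.22 and -0.50). The *set1* rise at v31.001119 and the *mll* rises at the first 3 lost their call when 1 library was left out.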

How the results depend on the processing

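No paired analysis was possible because the order of the 2 values in a table cell is not tied to the replicate numbers of the libraries. Of the counts of members called, 116 values under alternatives stayed within 1.5 times and 31 did not. At a member ratio of 1.5 (803 members) *set1*(RNAi) lowered 134 in X1, 14 in Xins and 327 in whole worms, where it raised 78, and *mll*(RNAi) lowered 1 in Xins and raised 85 in whole worms. At a ratio of 3 (287 members) these counts for *set1* were 27, 1, 47 and 13, and *mll*(RNAi) raised 1 in X1, lowered 23 in whole worms and raised 11. *set1*(RNAi) in Xins lowered 3 at an X1 mean of 40, and 2 at the stricter overlap, which left 10 raised by *set1* in whole worms. With the trend switched, *mll*(RNAi) raised 2 in X1. Without the first-listed Xins library in the rule it lowered 1 in Xins. By direction of the libraries alone, 120 were raised by *set1* and 121 lowered and 112 raised by *mll* in whole worms. Centring gave 90 raised by *mll*.

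With each library left out in turn, the counts ran from 78 to 78 (*set1* lower) and 26 to 26 (*mll* lower) with 4 to 6 (*mll* higher) in X1, from 0 to 5 in Xins after *set1*, and in whole worms from 125 to 157 and 16 to 28 (*set1* lower and higher) and 53 to 75 and 19 to 38 (*mll*). A library left alone in its group was taken to vary as the others do. The regions in X1 had been listed for a difference between these same libraries, and nearly all of them passed. Unchanged counts in X1 therefore say little about stability. The second-listed control gave the lowest counts in whole worms, 125 and 16 for *set1* and 19 for *mll* higher, and the first-listed gave 21 for *mll* higher; for *set1* higher, the first-listed RNAi, second-listed RNAi and first-listed control gave 25, 21 and 28. Of 529 alternative values for the 55 named regions, 28 lost the call, 25 of them only through a library left out, and 0 reversed. The shared rise at v31.001387 was lost under most. The cause of these shifts was not tested, beyond the fewer or more members that a rule takes. The few reads in the first-listed Xins library limit the precision of the members' ratios.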
